A study of Lemna gibba with 6 samples.

Results

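The enzymes described here are transketolase and transaldolase of *Lemna gibba*, a duckweed, in fronds that grew on glutamine and in fronds that grew on nitrate and ammonium. The members are the genes to which the study's reaction network assigns either enzyme and that have a row in the deposited expression table. They are 5 of 16340 genes, with 3 genes for transketolase (LEMGIv51_A5_006445_1, LEMGIv51_A5_017459_1 and LEMGIv51_A5_017458_1) and 2 for transaldolase (LEMGIv51_A5_004221_1 and LEMGIv51_A5_010929_1). The network lists all 5 under its plastidic reactions, and it also holds cytosolic copies of these reactions to which no gene is assigned, so the compartment of each enzyme was not settled by the list. By the study's annotation, LEMGIv51_A5_006445_1 and LEMGIv51_A5_017459_1 resemble a chloroplastic transketolase of maize and LEMGIv51_A5_017458_1 one of *Arabidopsis*, LEMGIv51_A5_010929_1 resembles a transaldolase of *Capsicum*, and LEMGIv51_A5_004221_1 is called a transaldolase by the enzyme prediction alone, since the annotation of the draft genome gives it no function. The table itself holds IDs only, so these names could not be checked against it.

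Transketolase and transaldolase interconvert sugar phosphates and together form the reversible, non-oxidative branch of the pentose phosphate pathway. Transketolase, which uses thiamine diphosphate as cofactor, moves a short ketol unit from a ketose phosphate to an aldose phosphate, and in the chloroplast it also serves the Calvin-Benson-Bassham (CBB) cycle, where it helps to regenerate the acceptor of carbon dioxide. Transaldolase moves a dihydroxyacetone unit, and its product erythrose 4-phosphate is, with phosphoenolpyruvate, a starting point of aromatic amino acid synthesis.

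RNA sequencing compared fronds under the organic nitrogen source (ONS), in which 6.85 mM glutamine was the only nitrogen source, with fronds under the inorganic nitrogen source (INS), with 12.4 mM nitrate and 1.3 mM ammonium. All cultures were of one axenic strain, G3 7742a, under continuous light, with 5 g/L glucose in the medium of both conditions. Each condition had 3 libraries of polyA RNA, from biological replicates as the study describes them. Whole fronds were ground, so that fewer cells of a type and less RNA per cell cannot be told apart. The study reports that roots, which it did not separate, made up more of the dry weight under ONS. Whether this bears on the genes described here was not tested.

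The deposited values are condition means of normalized reads, that is, reads per transcript divided by a size factor for the depth of each library. Each condition mean is a weighted sum of whole reads from 3 libraries, and for 11331 genes (69.3% of the table) these reads could be recovered, which gave values per library. The libraries are called here by their estimated depth within the condition, with 35807286 (deepest), 15936157 (middle) and 14443663 (shallowest) reads under ONS and 25856532, 22971829 and 8324792 reads under INS. They could not be matched to replicate numbers. Spearman's rho across genes lay between 0.909 and 0.967 for libraries of one condition and between 0.792 and 0.927 between libraries of different conditions. The lowest value of each range involved the deepest INS library. A gene is called here at a limma p-value, adjusted with the Benjamini-Hochberg procedure over 10240 genes, of at most 0.05 and more than a 4-fold change. The sample label was checked with the genes for the small chain of RuBisCO, which mark photosynthetic tissue. Of 16 such genes, 15 were in the table and 11 had a mean above 1000, and together they took 2.12% of all normalized reads under ONS and 1.63% under INS.

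The members differed more among themselves than most did between the conditions. A single transketolase gene gave nearly all transketolase reads, and its condition means were close to each other, while the other transketolase genes had few reads and were lower in the ONS libraries. Of the transaldolase genes, LEMGIv51_A5_010929_1 was not called and LEMGIv51_A5_004221_1 could not be tested. Of the 3 members with reads per library, 2 were called lower under ONS, against 2.45% of all genes tested, and 0 were called higher, against 0.303% of all genes tested. In the same 2 members every ONS library lay below every INS library, as it did for 14.2% of the genes tested, and in 0 of the 3 every ONS library lay above every INS library, as it did for 11.5%. By condition means, which all 5 members have, 2 were more than 4-fold lower under ONS, against 2.3% of the 15249 genes whose mean reached 10, and 0 were more than 4-fold higher, against 0.328%.

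LEMGIv51_A5_006445_1, the main transketolase gene by reads, had a condition mean of 30433 normalized reads under ONS and 28017 under INS. It ranked 56th of all genes by mean reads under ONS and 60th under INS. The log2 ratio of the means was 0.12, and 76.7% of the 3627 genes with a mean of at least 1000 had a ratio farther from 0. Its means are too large to be separated into reads, so the ratio has no error and no test. The gene took 99.9% of the summed transketolase reads under ONS and 99.1% under INS. These are shares of reads that are not divided by transcript length, and lengths were not used here.

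**Figure D1:**
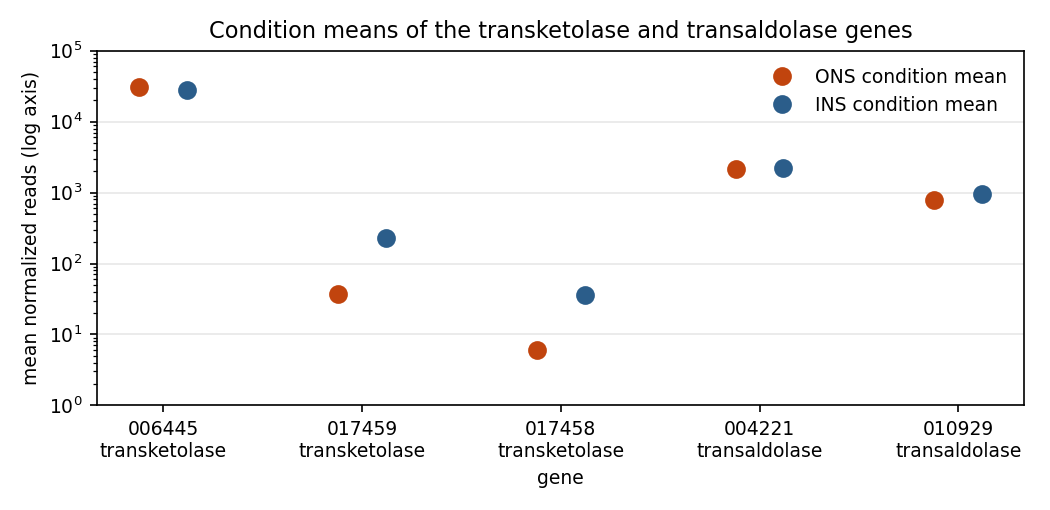
Condition means in normalized reads (log axis) of the 3 transketolase and 2 transaldolase genes, with the ONS mean to the left of the INS mean for each gene. The means of LEMGIv51_A5_006445_1 (30433 under ONS and 28017 under INS) stand orders of magnitude above those of LEMGIv51_A5_017459_1 and LEMGIv51_A5_017458_1, the only members whose ONS and INS points are clearly apart.

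LEMGIv51_A5_017459_1 is a transketolase gene with far fewer reads. Its normalized reads were 38.2, 29.8 and 42.9 in the deepest, middle and shallowest ONS libraries, against 185, 217 and 289 in the deepest, middle and shallowest INS libraries. The highest ONS library stayed well below the lowest INS library. The gene averaged 37.0 ± 6.67 normalized reads under ONS and 230.1 ± 53.4 under INS (SD, n = 3 each), a mean 6.23-fold lower under ONS. On the log2(normalized reads + 1) scale it fell by 2.60 (SE 0.30, limma, Benjamini-Hochberg adjusted p = 7.51e-04), with a 95% interval of the difference from -3.26 to -1.93. The spread within a condition, pooled over the conditions, was an SD of 0.30 on that scale, below the median of 0.37 for genes with a mean of 50 to 300. The call held under all 12 alternatives, with adjusted p-values from 6.29e-04 to 0.00815. The gene took 0.121% of the transketolase reads under ONS and 0.814% under INS.

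LEMGIv51_A5_017458_1, the remaining transketolase gene, was near the lower end of what the libraries could measure. The recovered reads were 12, 4 and 6 in the deepest, middle and shallowest ONS libraries, against 19, 48 and 24 in the INS libraries in the same order. Divided by the size factors, these were 6.11, 4.58 and 7.58 normalized reads under ONS, against 13.7, 39.0 and 53.8 under INS. The groups did not overlap, but the deepest INS library lay nearer to the ONS libraries than to the other INS libraries. The gene averaged 6.09 ± 1.499 normalized reads under ONS and 35.5 ± 20.3 under INS (SD, n = 3 each). It fell by 2.19 on the log2 scale (SE 0.57, limma, Benjamini-Hochberg adjusted p = 0.0462), with an interval from -3.44 to -0.94. Its SD on that scale was 0.31 under ONS and 0.99 under INS. Pooled over the conditions it was 0.73, above the median pooled SD of 0.57 for genes with a mean of 10 to 50. This call was close to the threshold and held under 3 of 11 alternatives, in which the difference ranged from -2.74 to -1.72 and the adjusted p from 0.0107 to 0.185. It was lost when any one of the other 5 libraries was left out, and kept without the deepest INS library, where the difference was -2.74 (adjusted p = 0.0107).

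**Figure D2:**
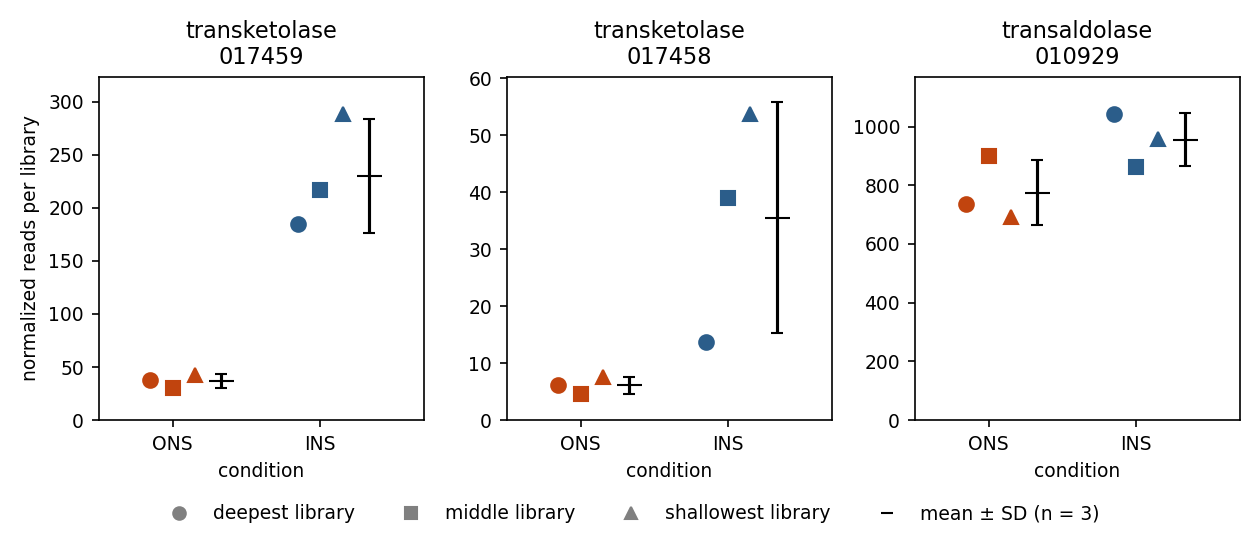
Normalized reads per library (linear axes from 0, one panel per gene) for the 3 members with recovered reads, with the 3 ONS libraries to the left of the 3 INS libraries, marker shapes for the deepest, middle and shallowest library of each condition, and black bars for the mean ± SD (n = 3). The ONS and INS points are apart for both transketolase genes, with LEMGIv51_A5_017458_1 at 13.7 in the deepest INS library, and overlap for transaldolase LEMGIv51_A5_010929_1.

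The IDs of LEMGIv51_A5_017458_1 and LEMGIv51_A5_017459_1 are consecutive, and whether reads of one were assigned to the other was not tested. Reads of LEMGIv51_A5_017458_1 were 0.160, 0.154 and 0.176 times those of LEMGIv51_A5_017459_1 in the deepest, middle and shallowest ONS libraries. The corresponding values in the INS libraries were 0.0742, 0.180 and 0.186. The ratio was thus alike in 5 libraries and lower in the deepest INS library. The log2 ratio of LEMGIv51_A5_017459_1 over LEMGIv51_A5_017458_1 averaged 2.43 ± 0.06 under ONS and 2.84 ± 0.71 under INS (SD, n = 3 each). The difference of -0.41 was within the spread of the INS libraries (exact permutation test over libraries, two-sided, p = 0.6, adjusted over 3 pairs p = 0.6, where 3 against 3 libraries allow no p below 0.1). It depended on the pseudocount, since a pseudocount of 5 gave -0.75 with the groups apart (exact permutation test, p = 0.1). Without the deepest INS library the difference was 0.0022. Over the 6 libraries, Pearson's r between the 2 genes was 0.937, as a description of points that share libraries and condition.

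The genes with neighbouring numbers did not follow this pair. Of the 4 genes numbered just below and the 4 just above, the 5 with recovered reads were not called, and the log2 ratios of condition means of all 8 lay between -0.58 and 0.36. The nearest were LEMGIv51_A5_017457_1, with a condition mean of 106 normalized reads under ONS and 83.8 under INS, and LEMGIv51_A5_017460_1, with 13494 under ONS and 12999 under INS. No name was used here for either gene, and they were picked for their numbers, which need not give their order in the genome.

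Summed over the 3 genes, transketolase reads were 30476 under ONS and 28283 under INS, a log2 ratio of 0.11. The direction of the sum was thus opposite to that of the 2 called genes, since LEMGIv51_A5_006445_1 outweighs them. No error can be given for the sum.

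LEMGIv51_A5_004221_1, the transaldolase gene with more reads, had a condition mean of 2146 normalized reads under ONS and 2186 under INS. The log2 ratio of the means was -0.03, and 94.9% of the genes with a mean of at least 1000 had a ratio farther from 0. Its direction depends on the scaling, since the ratio became 0.01 when the conditions were scaled by their summed means. As for LEMGIv51_A5_006445_1, its reads could not be recovered, and no error or test is available. It ranked 1677th by mean reads under ONS and 1689th under INS.

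LEMGIv51_A5_010929_1, the other transaldolase gene, had 735, 901 and 691 normalized reads in the deepest, middle and shallowest ONS libraries, against 1044, 863 and 959 in the INS libraries in the same order. The middle ONS library exceeded the lowest INS library, so the groups overlapped. The means were 775 ± 111 under ONS and 955 ± 90.7 under INS (SD, n = 3 each). The log2 difference of -0.31 (SE 0.19, limma, Benjamini-Hochberg adjusted p = 0.414) had an interval from -0.72 to 0.11, so that a fall of more than 2-fold lay outside it and a small change in either direction inside. Under 12 alternatives the difference ranged from -0.42 to -0.23, and the gene was called in none (lowest adjusted p = 0.385). It was the least variable of the 3 members with recovered reads, with a pooled SD of 0.17 on the log2 scale within a condition.

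Together the transaldolase genes had 2921 reads under ONS and 3141 under INS, a log2 ratio of -0.10. LEMGIv51_A5_004221_1 took 73.5% of these under ONS and 69.6% under INS. Reads of transaldolase were thus shared between the genes, in contrast to transketolase, for which the shares of the minor genes together stayed under 1% in both conditions.

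Within each library, transketolase LEMGIv51_A5_017459_1 was set against transaldolase LEMGIv51_A5_010929_1, as the ratio of normalized reads + 1. Its log2 averaged -4.36 ± 0.46 under ONS and -2.07 ± 0.39 under INS (SD, n = 3 each), and all ONS libraries lay below all INS libraries. The difference was -2.29 (exact permutation test, two-sided, p = 0.1, the smallest that 3 against 3 libraries allow, and 0.15 after adjustment over the 3 pairs of members). For LEMGIv51_A5_017458_1 over LEMGIv51_A5_010929_1 the difference was -1.88, with the same p-values in the exact permutation test. The highest ONS library was at -6.33, and the INS libraries ran from -6.15 in the deepest to -4.13 in the shallowest, a range wider than this difference. With a pseudocount of 5 it was -1.42 and the groups overlapped (exact permutation test, p = 0.2). The design cannot reach a p of 0.05 for any pair.

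Against genes with similar mean reads, the members fell into 2 sets. LEMGIv51_A5_017459_1, at a log2 ratio of condition means of -2.64, lay below the 5th percentile of -1.27 of the 3271 genes with a mean from 100 to 300. LEMGIv51_A5_017458_1, at -2.54, lay below the 5th percentile of -2.15 of the 1496 genes with a mean from 10 to 30, where the ratios spread more widely. The other members lay inside the middle 90% of their groups. For the 280 genes with a mean of at least 10000, which include LEMGIv51_A5_006445_1, this range was -0.63 to 0.65. The ranges were -1.01 to 0.62 for the group of LEMGIv51_A5_004221_1 and -1.05 to 0.64 for that of LEMGIv51_A5_010929_1.

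**Figure D3:**
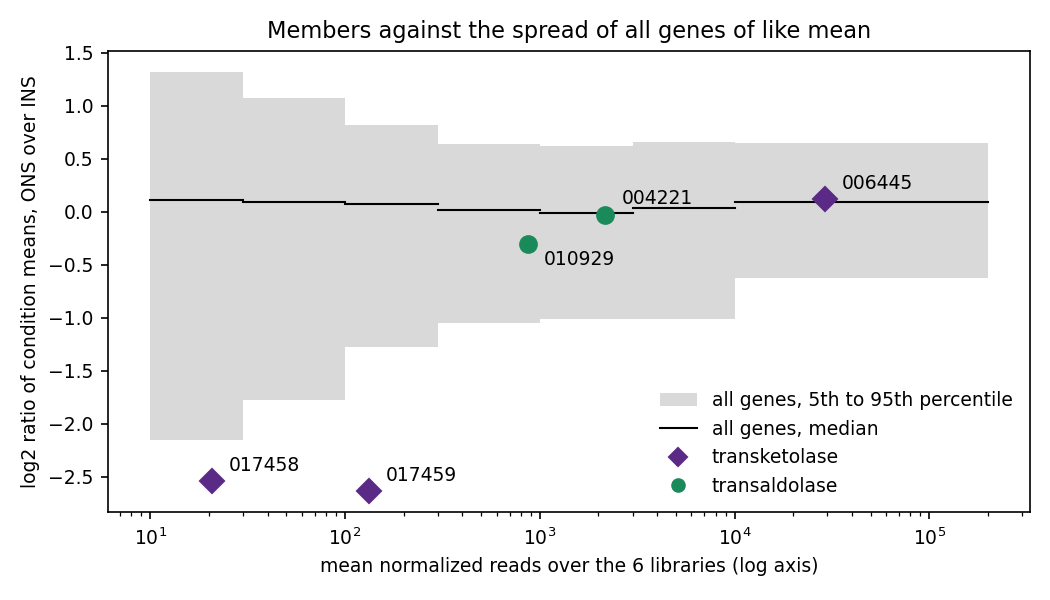
Log2 ratio of condition means (ONS over INS) against mean normalized reads over the 6 libraries (log axis), with transketolase genes as diamonds, transaldolase genes as circles, and the grey band and black line for the 5th to 95th percentile and the median of all genes in each range of means. LEMGIv51_A5_017459_1 (-2.64) and LEMGIv51_A5_017458_1 (-2.54) lie below the band, and the other 3 members lie within it.

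The reactions next to transketolase and transaldolase in the non-oxidative branch are those of ribose-5-phosphate isomerase and ribulose-phosphate 3-epimerase, which interconvert the pentose phosphates on which transketolase acts. Of their 6 genes, all in the table, 3 had recovered reads and 0 were called in either direction (limma, with 0 at an unadjusted p under 0.05). The 6 log2 ratios of condition means ran from -0.64 to 0.43 with a median of 0.03, against a median of 0.04 over all genes with a mean of at least 10. As for transketolase, each enzyme had a gene with many reads, and these genes were close in both conditions. The epimerase gene LEMGIv51_A5_001012_1 had condition means of 20941 under ONS and 18912 under INS (log2 ratio 0.15), and the isomerase gene LEMGIv51_A5_001122_1 had 10122 under ONS and 12337 under INS (log2 ratio -0.29).

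The epimerase gene LEMGIv51_A5_003887_1 is a minor one, like the called transketolase genes, and had 71.3, 41.2 and 45.5 normalized reads in the deepest, middle and shallowest ONS libraries, against 62.0, 91.7 and 91.8 in the INS libraries in the same order. The deepest ONS library was above the deepest INS library, and the groups overlapped. Its log2 difference was -0.65 (SE 0.34, limma, Benjamini-Hochberg adjusted p = 0.333). The epimerase gene with the preceding number, LEMGIv51_A5_003886_1, had 186, 406 and 109.9 normalized reads in the ONS libraries, against 248, 239 and 253 in the INS libraries, and varied mainly among the ONS libraries (log2 difference -0.28, adjusted p = 0.733). Of the isomerase genes, LEMGIv51_A5_018279_1 had 684, 623 and 514 normalized reads under ONS, against 553, 406 and 389.8 under INS, again with overlap (0.44, adjusted p = 0.316). The last isomerase gene, LEMGIv51_A5_016909_1, had condition means of 1256 under ONS and 969.99 under INS, a log2 ratio of 0.37 with no error.

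The oxidative branch, which forms pentose phosphates from glucose 6-phosphate with reduction of NADP, was assigned 14 genes, of which 11 were in the table and 4 had recovered reads. Of these 4, 0 were called (limma), with 1 at an unadjusted p under 0.05. The branch held the widest range of ratios, from -5.002 to 1.07. At the lower end was the phosphogluconate dehydrogenase gene LEMGIv51_A5_005055_1, with 134 normalized reads under ONS and 4299 under INS. It is named here after its value was seen and could not be tested, since its INS mean was too large to be separated. By the mean over the 6 libraries, the gene with the most reads was glucose-6-phosphate dehydrogenase LEMGIv51_A5_015264_1. It had 1349.9 under ONS and 4494 under INS (log2 ratio -1.74, also without an error). Under ONS alone a phosphogluconate dehydrogenase gene had the most, with 1848.

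The other plastidic enzymes of the CBB cycle comprised 14 genes, all in the table, with 4 tested and 0 called (limma, 1 at an unadjusted p under 0.05). Their log2 ratios ran from -0.65 to 0.95 with a median of 0.14, and 10 of the 14 were above 0. The gene with the most reads, for fructose-bisphosphate aldolase (LEMGIv51_A5_001529_1), had means of 55389.6 under ONS and 62765 under INS. Phosphoribulokinase (LEMGIv51_A5_003509_1), an enzyme particular to the cycle, had 21601 under ONS and 16639.7 under INS. The ratio of transketolase LEMGIv51_A5_006445_1 (0.12) thus lay near the median of these genes, and the ratios of the 2 called transketolase genes lay below all of them.

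Other enzymes that use thiamine diphosphate were listed because they share the cofactor of transketolase. Of 17 genes, 12 were in the table and 5 were tested, of which 1 was called lower and 0 higher. The called gene was pyruvate decarboxylase LEMGIv51_A5_020915_1, an enzyme of ethanol fermentation, with 114, 79.0 and 130.1 normalized reads in the deepest, middle and shallowest ONS libraries, against 579, 306 and 689.9 in the INS libraries in the same order. It fell by 2.22 on the log2 scale (SE 0.33, limma, Benjamini-Hochberg adjusted p = 0.00278), and its groups did not overlap. The ratios of condition means of the other 11 genes in the table, for pyruvate dehydrogenase, oxoglutarate dehydrogenase and acetolactate synthase, were all above 0, from 0.01 to 0.97. Among these, pyruvate dehydrogenase LEMGIv51_A5_002158_1 had the most reads by the mean over the 6 libraries, with 5523 under ONS and 4099.96 under INS. Under INS alone another pyruvate dehydrogenase gene had more, with 4235.

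The last list held genes that supply the plastid with sugar phosphates or draw on erythrose 4-phosphate. All 5 were in the table, 1 was tested and 0 were called (limma, 0 at an unadjusted p under 0.05). Their log2 ratios of condition means ran from -1.84 to 0.37. The lowest was that of the glucose-6-phosphate translocator LEMGIv51_A5_001996_1, which exchanges glucose 6-phosphate across the plastid envelope, with 1285 under ONS and 4616 under INS. It has no error and is named here after its value was seen. The triose phosphate translocator LEMGIv51_A5_021619_1, which exports triose phosphates from the plastid, had the most reads, with 10215 under ONS and 7899 under INS. The DAHP synthase genes, which use erythrose 4-phosphate, had log2 ratios of opposite sign, -0.66 and 0.32. Over all lists outside the members, 1 of 17 tested genes was called lower, against 2.45% of all genes tested. None was called higher, against 0.303%. By condition means, 2 of 48 genes were more than 4-fold lower under ONS, against 2.3% of the genes whose mean reached 10. The median log2 ratio of these 48 genes was 0.17.

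**Figure D4:**
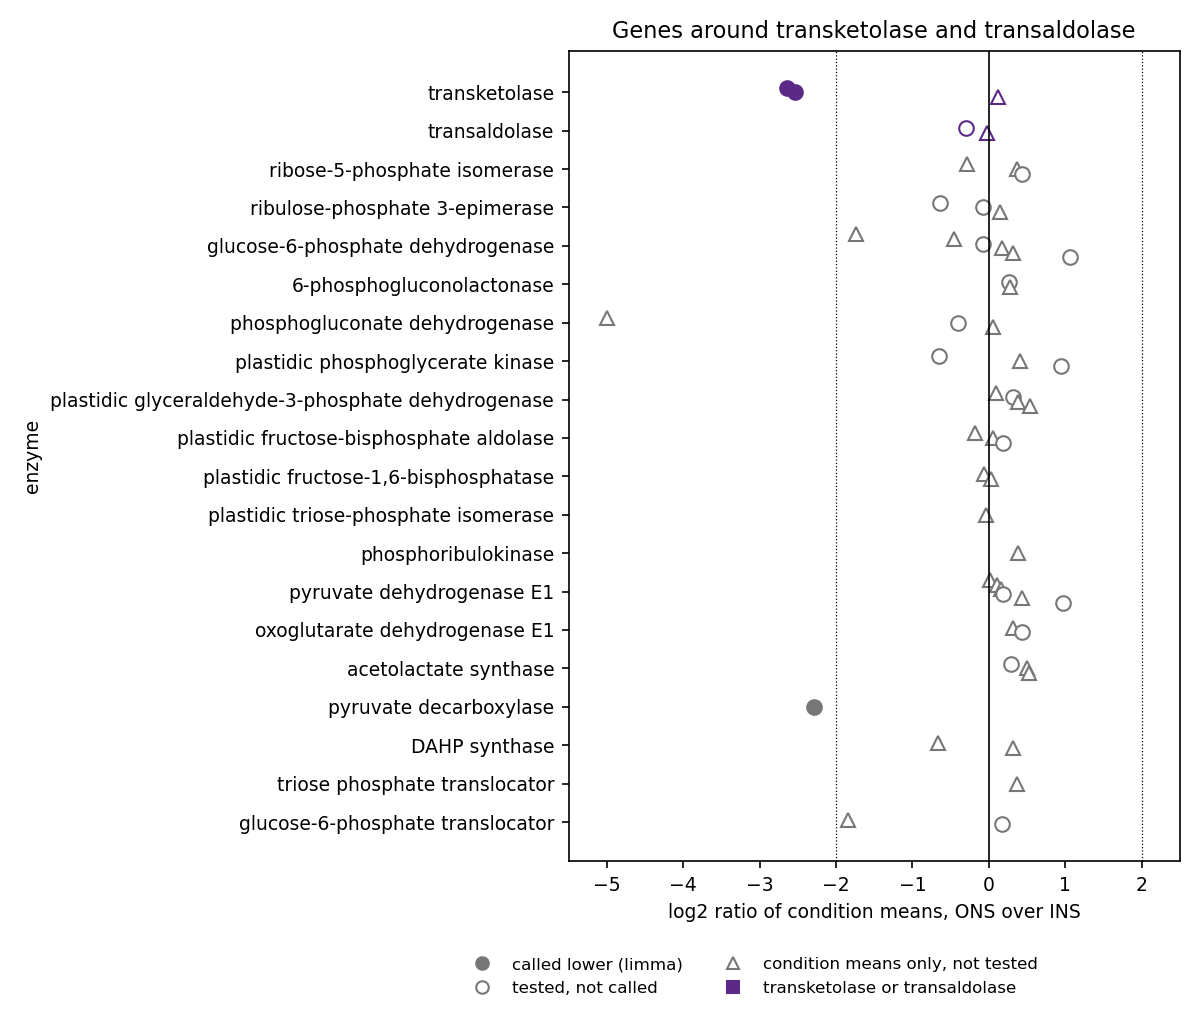
Log2 ratio of condition means (ONS over INS) of single genes with a mean of at least 10, by enzyme, with members in purple, filled circles for genes called lower by limma, open circles for genes tested and not called, triangles for genes with condition means only, and dotted lines at a 4-fold change. The called transketolase genes, pyruvate decarboxylase and an untested phosphogluconate dehydrogenase gene lie beyond 4-fold, and the main transketolase gene and both transaldolase genes lie near 0.

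The profile of LEMGIv51_A5_017459_1 over the 6 libraries was compared with those of 7874 genes with recovered reads and a mean of at least 50, by Pearson's r of log2(normalized reads + 1). Since all points share the libraries and the condition, r is given as a description. The highest values were 0.997 for LEMGIv51_A5_005948_1, 0.995 for LEMGIv51_A5_006997_1 and 0.992 for LEMGIv51_A5_011512_1, for which no names were used here. They differed in the size of the response, as r does not depend on it. LEMGIv51_A5_011512_1 had 47.9, 42.3 and 51.8 normalized reads in the ONS libraries, against 230.1, 199.7 and 259.8 in the INS libraries, and was called lower (log2 difference -2.25, limma, Benjamini-Hochberg adjusted p = 8.24e-04). LEMGIv51_A5_005948_1 (-1.48, adjusted p = 0.00227) did not reach 4-fold, and LEMGIv51_A5_006997_1 (-0.79, adjusted p = 0.178) passed neither criterion.

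Among the 17 candidates of the enzyme lists, the highest r with LEMGIv51_A5_017459_1 was 0.957 for pyruvate decarboxylase LEMGIv51_A5_020915_1, which ranked 110th among all 7874 genes. It was followed by 0.786 for the epimerase gene LEMGIv51_A5_003887_1 and 0.645 for transaldolase LEMGIv51_A5_010929_1. Pyruvate decarboxylase differed from transketolase mainly in the INS libraries, where its middle library was the lowest, while LEMGIv51_A5_017459_1 was lowest in the deepest INS library.

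**Figure D5:**
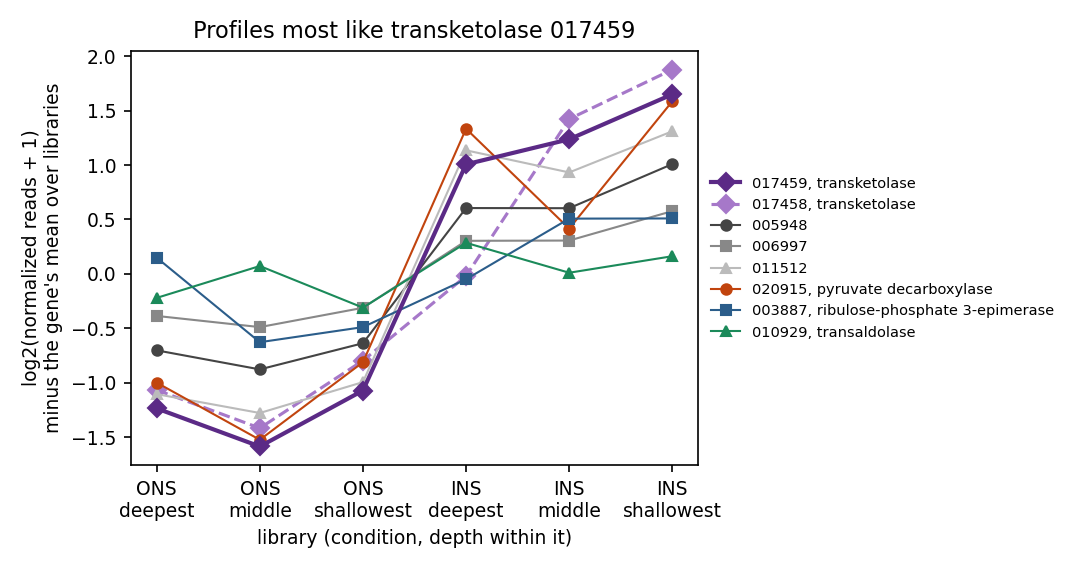
Log2(normalized reads + 1) minus the gene's mean over the 6 libraries, with the ONS libraries to the left of the INS libraries, for transketolase genes LEMGIv51_A5_017459_1 and LEMGIv51_A5_017458_1, the 3 genes of the whole table and the 3 of the enzyme lists most like LEMGIv51_A5_017459_1. Lines only link points of one gene, libraries having no order, and transaldolase LEMGIv51_A5_010929_1 (r = 0.645) shows the flattest profile of those drawn.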

How the data were processed

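RNA reads of 101 bp from 6 libraries were mapped by the authors with Bowtie to 21830 predicted transcripts of the *L. gibba* draft genome v0.5.1, counted, and normalized and compared with DESeq (versions not given in the sources used here). The deposited signal values are means of counts that the authors divided by size factors, over all libraries and per condition. The authors' fold changes, log2 fold changes, p-values, adjusted p-values and calls, in further columns, were not used.

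From the condition means, printed to 10 significant digits, the library weights and then whole reads were searched for means under 1000, and kept where each condition had a single solution. The search was checked on simulated means, which were built with the same library weights and so cannot test the weights. At means of 300 to 1000, 73.0% of ONS means and 98.9% of INS means had a single solution. Among means shifted by small amounts in this range, 56.3% (ONS) and 39.0% (INS) also had a solution. The condition means of LEMGIv51_A5_010929_1 lie in this range. Genes whose reads were not recovered have no values per library and were not tested. For the genes with recovered reads no count model was fitted. Their log2(normalized reads + 1) was tested with limma 3.58.1 (R 4.3.3) and its mean-variance trend (10240 genes, mean at or above 10). This fit was also checked on simulated reads. Fold changes on this scale understate those of genes with few reads. Ratios of members within libraries were tested by exact permutation (scipy 1.17.1). Recovery and summaries used Python 3.11.15 with numpy 2.4.6, pandas 2.3.3 and numba 0.67.0. The limma p-values set a difference against the spread between these libraries, with variances informed by all genes tested. Those of the permutation test set it against all relabellings of the libraries.

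All 5 members are named. Of each list, made from the enzyme names of the study's network, the isomerase and epimerase genes, the called genes and the gene with the most reads are named, with the 3 genes of the table and the 3 of the lists most like LEMGIv51_A5_017459_1; phosphoribulokinase marks the tissue, and neighbouring IDs, LEMGIv51_A5_005055_1 and LEMGIv51_A5_001996_1 were added after values were seen. Members and lists were chosen with earlier results of these data known. Sequences and transcript lengths were not used here.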

Additional observations from a re-analysis of the deposited data

How the results depend on the processing

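The direction and call of LEMGIv51_A5_017459_1 were kept under all 12 alternatives (log2 difference without one library -2.74 to -2.42), and LEMGIv51_A5_010929_1 was called under none. The call of LEMGIv51_A5_017458_1 was lost with a pseudocount of 5 (-1.72), voom precision weights (-2.11) and scaling by summed condition means (-2.16), and without one library its difference ranged from -2.74 to -1.80. With a mean of at least 50 it was not tested. Adding 10 to both condition means gave it a log2 ratio of -1.50, and scaling by summed means gave LEMGIv51_A5_006445_1 a ratio of 0.15, in place of 0.12. Over all genes, 282 were called (251 lower, 31 higher). This became 172 (153 lower, 19 higher) with a mean of at least 50 and 634 (541 lower, 93 higher) with no fold threshold, 18 were called higher with a pseudocount of 5, and without one library the count ranged from 226 to 313 (201 to 273 lower, 21 to 40 higher). The ratio differences of member pairs ranged without one library from -0.62 to 0.0022 for the 2 minor transketolase genes, from -2.50 to -2.03 for LEMGIv51_A5_017459_1 over LEMGIv51_A5_010929_1 and from -2.51 to -1.50 for LEMGIv51_A5_017458_1 over LEMGIv51_A5_010929_1. With a pseudocount of 5 these differences were -0.75, -2.17 and -1.42 in the same order. The causes were not tested. No paired analysis was possible because the recovered libraries carry no replicate numbers. Depth limits LEMGIv51_A5_017458_1, with 4 to 12 reads per ONS library, and LEMGIv51_A5_006445_1 and LEMGIv51_A5_004221_1, whose reads were not recovered, have no error.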
